A study of Mus musculus with 2 samples.

Results

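The cells described here are mesenchymal cells of the embryonic mouse heart that hold RNA of Tnxb and Col14a1 and of genes found with them. They were chosen by measured values, in the library labelled wildtype. A cell had to hold at least 4 of 7 genes with a UMI, a counted RNA molecule: Tnxb, Col14a1, Pid1, Pde1a, Spon2, Slit2 and Kcnn3. Cells with Ttn at 8 or more per 10000 UMIs, with at least 3 of 6 endothelial genes, or with at least 2 UMIs of the mesothelial genes Upk3b and Muc16 were left out first. The rule found 806 cells among 5239 non-erythroid cells, a share of 15.4% [14.4, 16.4], and they are called Tnxb/Col14a1 cells below. Over both libraries there were 10039 non-erythroid cells.

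Hearts were taken at E10.5 (embryonic day) and 4 were pooled for each library, with 1 library per genotype. The library labelled wildtype came from BubR1+/+ ; Nkx2.5-cre (het) embryos and the library labelled knockout from BubR1fl/fl ; Nkx2.5-cre (het) embryos, so both carried 1 copy of the Cre. Nkx2.5-cre acts in cardiac progenitors and their descendants, and which mesenchymal cells it had marked was not measured. BubR1, the product of Bub1b, is a protein of the spindle assembly checkpoint. With 1 pool per genotype nothing could be tested. Bounds in brackets are at 95% and reflect counting error alone. Levels are in CPM, a gene's share of the summed UMIs of a class of cells in parts of 1e6, and ratios are log2.

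Mesenchymal cells of the embryonic heart come from several sources. Epicardial cells on the surface of the heart delaminate and give rise to fibroblasts and mural cells, a step in which the transcription factor Tcf21 and the receptor Pdgfra are known to act. Endocardial cells give rise to the mesenchyme of the valve cushions, which is rich in Sox9 and hyaluronan-binding proteins. Fibroblasts lay down collagen I, III, V and VI, and tenascin X (Tnxb) and collagen XIV (Col14a1) associate with such fibrils.

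Some facts of the libraries bear on what follows. The file labelled wildtype held 122834180 UMIs and that labelled knockout 130039314. Tnxb/Col14a1 cells had a median of 10019 UMIs (range 3000 to 40959) and 3666.5 genes, against 8330 UMIs in the other non-erythroid cells. In erythroid cells, embryonic beta-globin made up 74.98% of beta-globin UMIs in the library labelled wildtype and 95.7% in that labelled knockout. Adult globin replaces the embryonic form as development goes on, so the libraries stand apart in a stage-linked measure although both labels give the same day. The part of this in any difference between the libraries was not tested. Hemoglobin, which non-erythroid cells lack, made up 11.1% of UMIs in barcodes of 10 to 100 UMIs and 0.757% in Tnxb/Col14a1 cells, so at most 6.82% of their UMIs came from free RNA of that composition. The libraries shared 8 cell barcodes, of which 1 belonged to a Tnxb/Col14a1 cell.

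The 7 genes of the rule encode secreted and matrix proteins, a channel and signalling proteins. Tnxb (ENSMUSG00000033327, mm10 chromosome 17, 34670535 to 34719815, GENCODE vM21) encodes tenascin X. Col14a1 (chromosome 15, 55307750 to 55520803) encodes a collagen that sits on the surface of other fibrils, Spon2 (chromosome 5, 33198184 to 33218455) a secreted matrix protein, and Slit2 (chromosome 5, 47983138 to 48307733) a ligand of Robo receptors. Pid1 (chromosome 1, 84036296 to 84364180) encodes an adaptor protein, Pde1a (chromosome 2, 79834453 to 80129458) a calcium-dependent phosphodiesterase and Kcnn3 (chromosome 3, 89520164 to 89675132) a calcium-activated potassium channel. Slit2 overlaps the gene model Gm20475 on its own strand, so reads of these models cannot be told apart. The levels below chose the cells and are given as a description.

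Tnxb/Col14a1 cells differed widely in how many copies they held. Slit2 gave 0 to 137 UMIs per cell, with a median of 15.5, and 99.1% of the cells held it. Pde1a was held by 96.9% (median 6 UMIs, highest 48), Spon2 by 84.4% (2, highest 24), Pid1 by 81.9% (3, highest 52) and Col14a1 by 79.5% (2, highest 24). Tnxb was held by 61.9% of the cells, with a median of 1 and a highest count of 14. Kcnn3 was the least common, in 42.1%, with a median of 0 and a highest count of 22. Tnxb and Col14a1 were seen together in 49.0% of the cells, and 180 of the 806 held all 7 genes. Erythroid cells, which should lack these genes, held a Tnxb UMI in 3.45% and a Slit2 UMI in 17.9% at a median of 11578 UMIs, and the other 5 in at most 11.7%.

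The other classes of the library shared the rule genes to different extents. The macrophage, cushion, arterial wall, and Ebf2 and Adamts18 classes hold no cell with at least 4 rule genes, because the rule took such cells first. The mesothelial, endothelial and Ttn classes were set before the rule and could hold them. Tnxb stood at 138 CPM [131, 146] in Tnxb/Col14a1 cells, 24.0 CPM [20.8, 27.5] in cells of the mesothelial rule and 0.664 CPM in cells of the cushion rule (at least 4 of Sox9, Hapln1, Has2, Papss2, Cthrc1, Msx1 and Twist1). Spon2 stood at 292 CPM [281, 304] and at 289 CPM [277, 300] in mesothelial-rule cells, where the intervals overlap, but at 5.31 CPM in cushion-rule cells. Pde1a stood at 694 CPM, against 407 in cushion-rule cells and 370 in cells of the arterial wall rule (at least 4 of Eln, Myh11, Acta2, Tagln, Cnn1 and Fbln5). Pid1 stood at 487 CPM, and its next highest level was 236 CPM [217, 256] in cells with at least 3 macrophage genes. Kcnn3 stood at 90.01 CPM [83.8, 96.5] and at no more than 11.8 CPM in any other class of the library. Col14a1 stood at 260 CPM, against 90.5 CPM in the 62 cells with Ebf2 and Adamts18 and 49.8 in cells of the endothelial rule. Slit2 stood at 1826 CPM, against 780 in the cells with Ebf2 and Adamts18, 776 in arterial-wall-rule cells and 629 in mesothelial-rule cells.

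**Figure D1:**
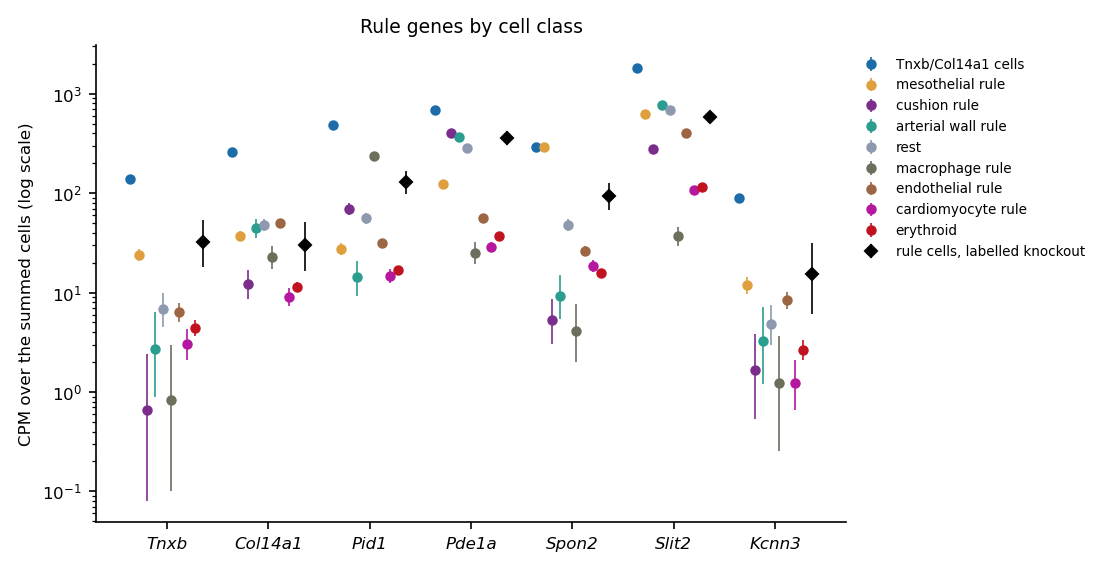
Level of each rule gene (CPM over the summed cells, log axis) in 9 classes of the library labelled wildtype (circles) and in the 26 cells of the library labelled knockout that met the rule (diamonds), with 95% Poisson intervals. The Tnxb/Col14a1 cells were selected on these genes; Spon2 alone is as high in another class, at 289 CPM in mesothelial-rule cells.

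Because a cell could pass through the gene itself, each gene was also read in cells that held at least 4 of the other 6. Tnxb then stood at 133 CPM in 752 cells against 10.51 CPM in the remaining non-erythroid cells, and 59.2% [55.6, 62.7] of those cells held it. Kcnn3 stood at 88.4 against 6.53 CPM, Pid1 at 485 against 53.9, Col14a1 at 261 against 38.5, Pde1a at 702 against 142, Spon2 at 288 against 79.4 and Slit2 at 1934 against 434 CPM. The log2 ratios were 1.86 to 3.76, against 1.99 to 4.08 when the gene itself could count.

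The number of rule genes held did not fall into separate groups of cells. Among the 2290 cells that passed the exclusions, 261 held none of the 7, 478 held 1, 459 held 2, 286 held 3, 201 held 4, 215 held 5, 210 held 6 and 180 held all. Median UMIs went from 5282 in cells with none to 11484.5 in cells with all, so depth moved with the count and its part was not tested. Just outside the threshold, the 286 cells with 3 genes had a median of 8287.5 UMIs and Tnxb at 10.4, Spon2 at 60.9 and Slit2 at 1021 CPM. Just inside it, the 201 cells with 4 genes had 8928 UMIs and Tnxb at 57.5, Spon2 at 183 and Slit2 at 1370 CPM. When rule genes were read after each cell had been thinned to 3000 UMIs, 505 of the 2290 cells still held at least 4.

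**Figure D2:**
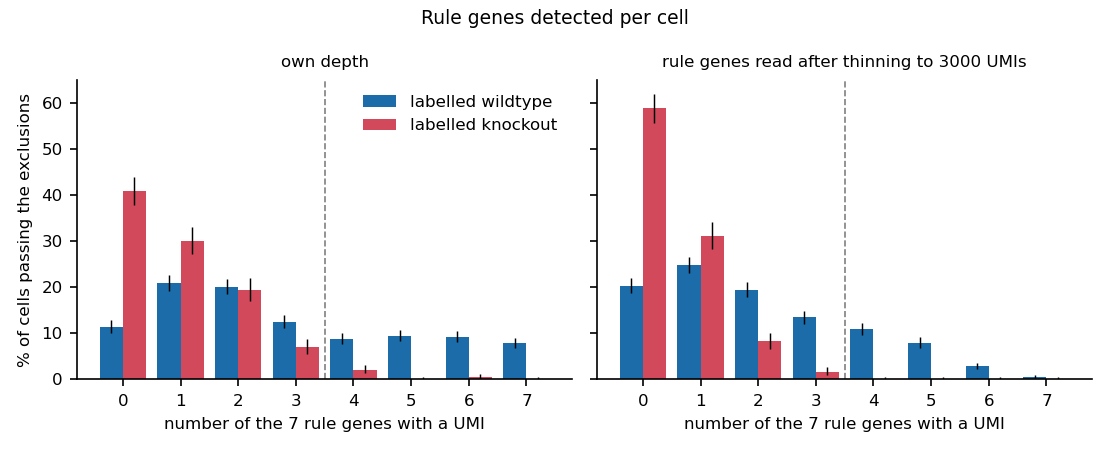
Share of cells passing the exclusions (y, percent, bars with 95% Clopper-Pearson intervals) by the number of the 7 rule genes with a UMI (x), in both libraries, at each cell's own depth (left) and with rule genes read after thinning to 3000 UMIs (right). The dashed line is the threshold of 4, which 35.2% of cells labelled wildtype and 2.63% of cells labelled knockout reached at own depth.

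The exclusions left out another 249 cells of the library labelled wildtype that held at least 4 rule genes. Of these, 167 met the mesothelial rule, 84 the endothelial rule and 26 the Ttn rule, and a cell could meet more than 1. Within the 806 cells kept, 48 also met the cushion rule, 64 the arterial wall rule, 15 held both Ebf2 and Adamts18, and 14 held at least 3 macrophage genes. Of the 6 endothelial genes that the rule limits, Cdh5 stood at 1.26 CPM, Kdr at 2.18, Pecam1 at 3.90, Emcn at 4.02 and Egfl7 at 15.6 in Tnxb/Col14a1 cells, while Tek, a receptor of angiopoietins, stood at 57.9. Of the 4 label markers, Tnxb, Col14a1 and Pid1 were highest in these cells among the classes compared, while Spon2 was as high in mesothelial-rule cells. All 4 are genes of the rule that chose the cells, so this order describes the choice and is no support for the label. For the label of mesenchyme, the collagen genes Col1a1 and Col3a1 stood at 1569 and 2271 CPM, and the heart muscle gene Nkx2-5 at 1.26 CPM. The Ttn limit of the rule bears on Nkx2-5. Col1a1 was at a like level in mesothelial-rule cells, so it does not set the Tnxb/Col14a1 cells apart from them.

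Genes outside the rule showed what else the cells carried, compared with the 4433 other non-erythroid cells. Of 17140 genes with at least 20 UMIs, 203 (1.18%) were at least 2-fold higher in Tnxb/Col14a1 cells with 10 CPM added to both levels, and 622 (3.63%) at least 2-fold lower. The cells were selected on the same RNA, so these counts describe them and test nothing. The named genes below are the 20 highest by that ratio, and the ratios printed with them have no CPM added.

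Tcf21 and Pdgfra, the transcription factor and the receptor linked to heart fibroblasts, were among the 20. Tcf21 stood at 278 CPM against 50.3, a log2 ratio of 2.47 [2.38, 2.55], and 660 of the 806 cells held it. Pdgfra stood at 291 CPM against 54.2 (2.42), and 682 cells held it. Both genes were seen in 574 of the cells. Conversely, of 796 cells passing the exclusions that held both, 72.1% [68.9, 75.2] were Tnxb/Col14a1 cells.

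Matrix, adhesion and force-sensing genes stood beside them. The collagen VI chains Col6a1 (273 against 39.7 CPM, 2.78 [2.69, 2.87]) and Col6a2 (184 against 32.4 CPM) were high together. Itgb5 and Itga8, integrin subunits that bind matrix, had ratios of 2.58 and 2.31. Hpse2, an enzyme-like protein that binds heparan sulfate, stood at 145 against 18.9 CPM (2.94), but at 258 CPM in arterial-wall-rule cells. Piezo2, a channel opened by membrane stretch, stood at 337 against 75.6 CPM (2.15).

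The receptor for nitric oxide was represented by both of its subunits. Gucy1a1 stood at 782 CPM against 175 (2.16 [2.11, 2.21]) and Gucy1b1 at 340 against 71.8 (2.24 [2.17, 2.32]). Gucy1a1 was nearly as high in mesothelial-rule cells, at 560 CPM, and low in cushion-rule cells, at 19.9. Mme, a membrane peptidase, stood at 120 against 15.1 CPM (2.99) and Slc38a5, an amino acid transporter, at 136 against 8.30 (4.04 [3.87, 4.21]). The steepest ratio belonged to Ano5, of the anoctamin family, at 64.9 against 2.75 CPM (4.56 [4.27, 4.85]).

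Lsp1 encodes an actin-binding protein best known from white blood cells. Lsp1 stood at 733 CPM against 98.2 (2.90 [2.85, 2.96]) and 94.8% of Tnxb/Col14a1 cells held it. The remaining genes were Pcdh9 (1316 against 244 CPM), B3galt1 (387 against 71.9), Rem1 (105 against 15.8), Grm8 (67.0 against 8.58), Sytl2 (58.1 against 5.44) and Ddx25 (57.6 against 4.98). The 10 lowest genes were all of the contractile apparatus of heart muscle, from Myl3 (33.9 against 1374 CPM) to Tnni3 (16.5 against 441). The Ttn limit of the rule bears on all of these, as the other cells include 648 that it left out.

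**Figure D3:**
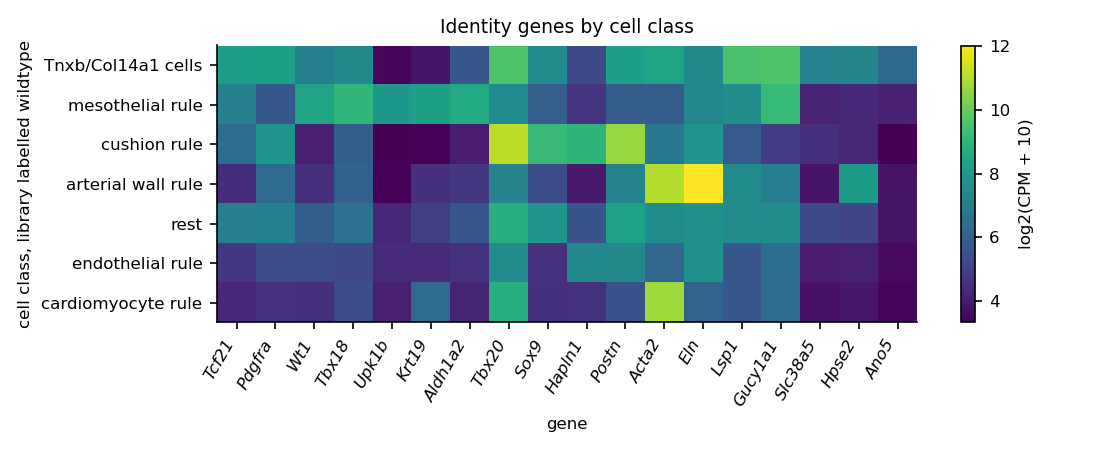
Levels of 18 genes (columns, log2 of CPM plus 10, colour) in 7 classes of the library labelled wildtype (rows). The Tnxb/Col14a1 row is high for Tcf21 (278 CPM) and Pdgfra (291 CPM) and low for Upk1b and Krt19, which stand at 242 and 300 CPM in the mesothelial row.

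Several genes outside the rule were higher in cells that held more of the rule genes, though not at each step. Tcf21 stood at 32.4 CPM in cells with none, 115 with 3, 239 with 4, 297 with 5, 264 with 6 and 305 with 7. Pdgfra stood at 45.6 CPM with none, 168 with 3 and 267 with 4. Gucy1a1 went from 33.0 to 194, 504 and 938 CPM, and Lsp1 from 106 to 220, 512 and 894. Hpse2 stood at 110 CPM with none, 15.8 with 3 and 129 with 4, but the first of these came from 183 UMIs in 12 of 261 cells. The share of cells that held Hpse2 was 4.60% with none, 6.99% with 3, 20.9% with 4 and 42.2% with 7. Eln, the elastin gene, was highest in cells with 2 rule genes, at 1182 CPM, and stood at 30.1 CPM in cells with all 7. These are levels of summed cells of 1 library, and the cells of adjoining counts share their free RNA.

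**Figure D4:**
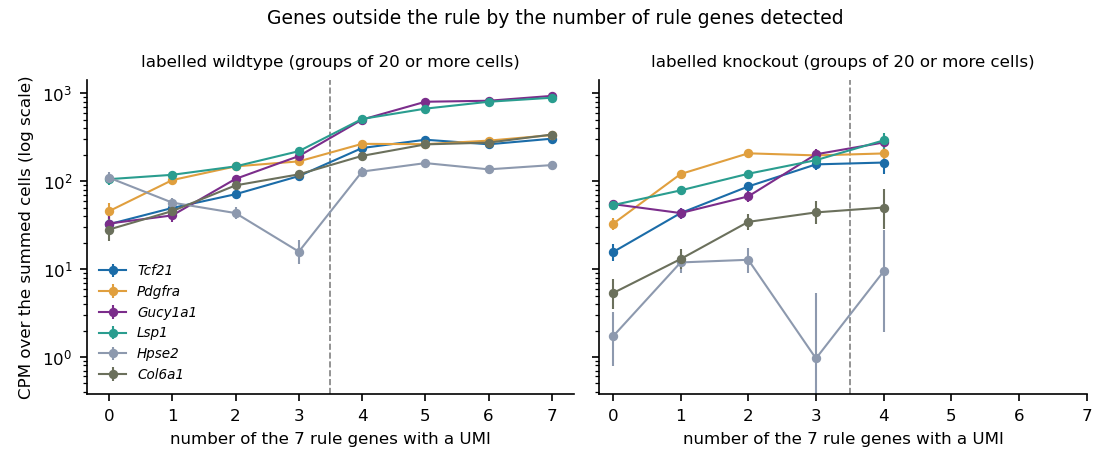
Levels of 6 genes outside the rule (CPM over the summed cells, log axis, 95% Poisson intervals) by the number of rule genes with a UMI, in groups of at least 20 cells. In the library labelled wildtype, Gucy1a1 goes from 33.0 to 938 CPM while the Hpse2 level with none rests on 12 cells; in that labelled knockout groups above 4 genes were too small to draw.

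A nearer comparison is with the cells that passed the same exclusions and held at most 1 rule gene. There were 739 of these, and 195 of them had at least 3 macrophage genes, so the lowest ratios were macrophage genes such as Mrc1 and C1qb. Without them, 544 cells remained. Against these, Ccdc3 stood at 131 against 6.16 CPM (4.41 [3.81, 5.07]), Svep1 at 129 against 7.23 (4.15), Frem1 at 135 against 8.83 (3.94) and Rbfox1, an RNA-binding protein, at 818 against 65.6 (3.64). Ano5 had 565 UMIs against 2, a ratio of 6.92 [5.06, 9.97]. Svep1 and Frem1 encode large extracellular matrix proteins. The lowest genes included Lef1, a mediator of Wnt signals (5.63 against 148 CPM), the cartilage collagen Col9a1 (6.31 against 136) and the pigment cell gene Dct (1 UMI against 289).

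Cells of the mesothelial rule cover the heart surface, and 876 were compared with the Tnxb/Col14a1 cells. They had a median of 8693.5 UMIs. Of 14196 genes, 303 (2.13%) were at least 2-fold higher in Tnxb/Col14a1 cells and 538 (3.79%) lower. All 15 genes of an epicardial list had intervals below 0, and 14 of the 15 were at least 2-fold lower, with a median of -3.14 where the median of all genes was 0.03. Keratins and surface genes were near 0 in Tnxb/Col14a1 cells: Krt19 stood at 4.48 against 300 CPM, Krt7 at 1.03 against 246 and Upk1b at 0.918 against 242. The rule excluded cells with Upk3b and Muc16, which bears on all of these.

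The epicardial transcription factors were lower but not near 0. Wt1 stood at 124 CPM in Tnxb/Col14a1 cells against 330 in mesothelial-rule cells and 6.97 in cushion-rule cells, and 484 of the 806 Tnxb/Col14a1 cells held a UMI of it. Tbx18 stood at 164 CPM against 520 and 49.1, and 66.6% held it. Aldh1a2, the retinoic acid synthesising enzyme, stood at 43.3 CPM against 394 and 5.98. In erythroid cells, which should lack both, Wt1 stood at 17.96 CPM and Tbx18 at 24.02.

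Of 14 measured fibroblast genes, 3 were at least 2-fold higher than in mesothelial-rule cells and none lower, with a median of 0.35 and 3 intervals below 0. Pdgfra, a gene of that list, stood at 291 against 42.8 CPM (2.76). Outside the list, Itga8 stood at 215 against 28.0 CPM (2.95) and Emilin1, a protein of elastic fibres, at 226 against 34.3 (2.72). Acta2, smooth muscle actin and a gene of the mural list, stood at 326 against 48.8 CPM (2.74 [2.59, 2.89]). Of 12 genes of mural cells, which wrap small vessels, 6 were at least 2-fold higher and 1 lower, with a median of 1.09. Pdgfrb stood at 112 against 19.5 CPM and Notch3 at 80.7 against 19.1, while Rgs5 at 20.9, Myh11 at 8.04 and Cspg4 at 14.9 CPM were low. Fli1, Cdh13, Gask1b and Lhfp completed the 12 highest with Ccdc3, Slc38a5, Hpse2 and Itgb5.

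Cells of the cushion rule were the other mesenchymal neighbour, with 352 cells and a median of 8026 UMIs. Of 13274 genes, 298 (2.24%) were at least 2-fold higher in Tnxb/Col14a1 cells and 404 (3.04%) lower. Gucy1a1 (782 against 19.9 CPM, 5.30 [4.93, 5.69]), Lsp1 (733 against 45.2, 4.02), Slit3, another Robo ligand (472 against 45.5, 3.38), Dhrs3, an enzyme of retinoid balance (91.7 against 3.65, 4.65), and Wt1 were among the highest. Ano5 had 565 UMIs against 0. Lower genes outside the cushion rule were Lef1 (5.63 against 300 CPM), Adamts19 (30.7 against 696), Col9a1 (6.31 against 208), Rgs6 and Kirrel3. Hapln1, Papss2 and Cthrc1 were low too, but the rule of the cushion cells used them. Of 9 measured macrophage genes, 6 were at least 2-fold higher in Tnxb/Col14a1 cells, with sums of 138 against 6.31 CPM. The order of the classes bears on this. Cells with at least 3 macrophage genes were taken out of the cushion class, while 14 stayed among the Tnxb/Col14a1 cells. The part of such RNA in the other ratios of the comparison was not tested.

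Tbx20 and Sox9, both linked to valve mesenchyme, were shared in part. Tbx20 stood at 791 CPM in Tnxb/Col14a1 cells and 2235 in cushion-rule cells, but 176 in mesothelial-rule cells. Sox9 stood at 173, 588 and 52.6 CPM in the same order, but it is a gene of the cushion rule, which bears on its level in cushion-rule cells. Vcan, a large proteoglycan of the cushions, stood at 220 CPM against 2221, and Postn at 283 against 1592. Gata4 (315 CPM), Gata6 (277) and Meis2 (1073) were within 2-fold of both neighbours, and Nkx2-5, at 1.26 CPM, was near 0. Isl1, Foxf1 and all 15 measured Hox genes were below 20 CPM, as were the glial and neural crest genes of the lists.

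The collagen and matrix lists described what the cells make. Of 26 measured genes for fibrillar collagens and their assembly, 10 were at least 2-fold higher than in the other non-erythroid cells and none lower, with a median of 0.83 against -0.01 for all genes. Col3a1 stood at 2271 against 773 CPM, Col1a1 at 1569 against 578, Col5a1 at 308 against 95.9, Col11a1 at 133 against 45.6 and Adamts2, which trims procollagen, at 72.6 against 27.9. Serpinh1, the collagen chaperone, stood at 822 against 521 CPM. Against mesothelial-rule cells, 6 of 24 were at least 2-fold higher and 2 lower, and Col1a1 (1529 CPM) and Dcn (1331 CPM) were at like or higher levels there. Against cushion-rule cells 4 of 25 were higher and 1 lower, where Col1a1 stood at 736 CPM.

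Against cushion-rule cells, 3 of 9 measured genes of a list of small leucine-rich proteoglycans and versican were at least 2-fold higher in Tnxb/Col14a1 cells and 4 lower, with a median of -0.76. Dcn, decorin, stood at 933 CPM in Tnxb/Col14a1 cells and 275 in cushion-rule cells, Ogn at 145 against 14.3 and Aspn at 54.8 against 11.95. Lum, lumican, went the other way, at 142 against 678 CPM. Of 18 fibroblast genes, 17 were measured and 7 were at least 2-fold higher than in the other non-erythroid cells, with a median of 0.38. The 7 were Pdgfra, Tcf21, Fbln1, Dcn, Col1a1, Col1a2 and Col3a1. Mfap5 and Gsn, also on that list, were not among them: Mfap5 stood at 6.89 CPM against 21.8, and Gsn at 45.9 against 52.9.

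Elastic fibre genes were mixed, with 3 of 17 at least 2-fold higher, 1 lower and a median of 0.12. Mfap4 (298 against 106 CPM), Fbln1 (225 against 78.3) and Emilin1 were the higher ones, while Efemp1 stood at 4.02 against 28.8. Of 17 genes of matrix remodelling, 5 were higher, among them Timp3 (331 against 129 CPM) and Adamts5 (117 against 46.1), and 1 lower, Adamts19 (30.7 against 81.95), with a median of 0.24. Of 17 basement membrane genes none was higher and 3 were lower: Lama5 at 1.84 against 19.1 CPM, Col18a1 at 59.4 against 225 and Nid2 at 19.8 against 57.5.

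Signalling lists held ligands, receptors and targets. In the list of Hedgehog, Pdgf and Fgf genes, 6 of 24 were at least 2-fold higher and 1 lower, with a median of -0.09. The receptors Pdgfra and Pdgfrb (112 against 36.5 CPM) and Fgfr1 (116 against 46.6) were high, as were the Fgf feedback gene Spry1 (59.5 against 11.9) and Gli3 (354 against 120), while the ligand Pdgfa stood at 8.15 against 43.2 CPM. Of 13 retinoic acid genes, 3 were at least 2-fold higher and 1 lower, with a median of -0.09. Of their intervals, 4 were above 0 and 6 below. Among these genes, the receptor Rarb stood at 250 against 102 CPM, Dhrs3 at 91.7 against 26.7 and Aldh1a2 at 43.3 against 88.6. Cyp26b1, which breaks retinoic acid down, stood at 21.5 against 8.67 CPM.

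The remaining signalling lists differed in how many genes were past 2-fold, where 1.18% of all genes were higher and 3.63% lower. None of 18 Bmp genes was higher and 2 were lower, 1 of 22 Wnt genes was higher (Frzb, a Wnt antagonist, at 23.5 against 5.12 CPM) and 2 were lower, and none of 14 Tgf-beta genes was higher and 2 were lower. In the list of Slit, Robo and other guidance genes, with Slit2 left out as a gene of the rule, none of 21 was 2-fold higher and 4 were lower, such as Plxna4 at 39.7 against 294 CPM. Robo1 stood at 430 against 447 CPM and Robo2 at 361 against 186. Of 16 genes of the Igf axis and imprinted genes, 9 were lower, with Igfbp5 at 156 against 598 CPM and Cdkn1c, a cell cycle inhibitor, at 734 against 1749, and Peg3 was higher (1172 against 559). Among potassium channel genes Kcnt2 was higher, at 189 against 42.2 CPM, and Kcnn2, a relative of Kcnn3, stood at 5.40 against 48.5. Of the phosphodiesterase genes outside the rule Pde3a stood at 517 against 256 CPM and Pde4b at 49.3 against 249.

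**Figure D5:**
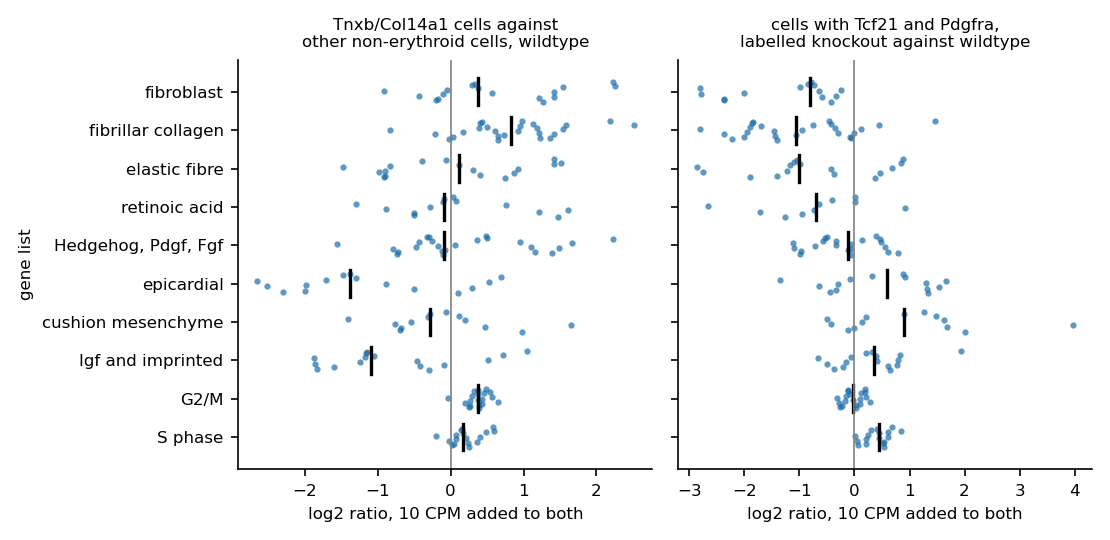
Log2 ratios (x, 10 CPM added to both levels) of the genes of 10 lists (rows; 1 point per gene with at least 20 UMIs, black bar the median) for Tnxb/Col14a1 cells against other non-erythroid cells (left) and, right, for cells with Tcf21 and Pdgfra of the library labelled knockout against wildtype. On the left the fibrillar collagen median is 0.83 and the epicardial median -1.38; on the right they are -1.07 and 0.60.

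Genes of dividing cells were spread unevenly over the cells. All 19 G2/M genes but Aurka had intervals above 0 against the other non-erythroid cells, none by 2-fold, with a median of 0.38, and all 19 had intervals above 0 against mesothelial-rule cells (median 0.78). Top2a stood at 457 CPM, against 242 in mesothelial-rule and 337 in cushion-rule cells. After thinning, 36.8% of Tnxb/Col14a1 cells held no G2/M UMI, the median was 1 and the mean 6.05. In mesothelial-rule cells 57.3% held none, in cushion-rule cells 53.98%, in macrophage-rule cells 30.2% and in cardiomyocyte-rule cells 24.4%. The median of the G2/M list moved with the threshold, from 0.22 for at least 3 rule genes to 0.56 for at least 5. Mki67 stood at 132 CPM in cells with 4 rule genes and 282 in cells with 7, and median depth moved with that count.

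Single genes differed among the Tnxb/Col14a1 cells by more than counting noise. The ratio of variance to mean of UMIs per cell, after thinning to 3000, had a median of 1.07 over 4459 genes with at least 100 thinned UMIs. It was 14.2 for Eln (8.92 without its top cell), 7.69 for Robo1, 7.49 for Cntn4, 6.74 for Mgp, 5.86 for Gpc6, 5.61 for Kcnd2 and 5.55 for Ptn. Ctla2a stood at 20.6 but at 8.05 without the 1 cell with 43 thinned UMIs, and Myl2 at 7.19 but 2.28 without its top cell. Malat1 stood at 11.8, AY036118 at 8.74 and Apoe at 9.82, and without the top cell of each gene Malat1 was highest of the 12, at 11.4.

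Splits of the cells by Eln and by Top2a were chosen after these values were seen. The 38 cells with at least 2 thinned Eln UMIs held Fbln5 at 702 CPM, against 17.6 in the 683 cells with none, Mgp at 1816 against 148, Sfrp2 at 746 against 73.2, Cntn4 at 711 against 52.7, Slit3 at 1535 against 420 and Robo1 at 1298 against 360. The same 38 cells had less of the cell cycle gene Prc1, at 17.5 against 152 CPM, and of Top2a, at 96.5 against 375. Of the rule genes, Tnxb stood at 26.3 against 153 CPM, from 3 thinned UMIs (-2.54 [-4.82, -0.98]). Col14a1 (-1.30 [-2.26, -0.49]), Spon2 (-1.07 [-1.86, -0.38]) and Pid1 (-0.98 [-1.56, -0.46]) were lower too, as were Pdgfra (-1.19 [-2.04, -0.46]) and Tcf21 (-0.94 [-1.73, -0.25]) outside the rule. Slit2 stood at 1561 against 1865 CPM (-0.26). The intervals of Pde1a, at 640 against 710 CPM (-0.15 [-0.51, 0.19]), and of Kcnn3 (-0.78 [-2.24, 0.37]) held 0. Eln and Fbln5 are genes of the arterial wall rule, which 64 of the 806 cells met. The 198 cells with at least 2 thinned Top2a UMIs held Eln at 43.8 CPM, against 213 in the 505 with none. The part of the arterial rule's genes and of depth in these splits was not tested.

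RNA of other cell types was measured in the same cells. The 10 cardiomyocyte genes summed to 373 CPM in Tnxb/Col14a1 cells, against 9779 in the other non-erythroid cells, which include those of the Ttn rule. After thinning, 49.6% of the Tnxb/Col14a1 cells held none. The 10 macrophage genes summed to 140 against 750 CPM with all 10 lower by their intervals, and 92.7% of the cells held none. Without the 14 cells with at least 3 macrophage genes the list's median went from -1.96 to -3.09. Lyz2 stood at 30.4 CPM. The parts of these cells and of free RNA in any single value were not tested.

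The same rule was applied to the library labelled knockout, which has deeper cells. It found 26 cells among 4800 non-erythroid cells, 0.542% [0.354, 0.793], against 15.4% [14.4, 16.4] in the library labelled wildtype. Of cells passing the exclusions, 2.63% [1.72, 3.82] of 990 met it, against 35.2% [33.2, 37.2] of 2290. With rule genes read after thinning to 3000 UMIs, 1 of 990 cells (0.101%) and 505 of 2290 (22.1%) met it. Without the exclusions, at least 4 rule genes were held by 153 cells labelled knockout, 119 of which met the mesothelial rule, and by 1055 labelled wildtype. Fewer cells of a kind and less RNA of these genes per cell cannot be told apart by such a rule, and neither can genotype and the stage-linked difference of the libraries. Other classes differed in number as well. The arterial-wall-rule class held 198 cells labelled wildtype and 2 labelled knockout, and that of Ebf2 with Adamts18 held 62 and 0. The cushion-rule class held 352 and 341, and the mesothelial-rule class 876 and 2141. Cells taken by a class set earlier are not in these numbers. Among cells that met the rule of the report, 48 and 14 also met the cushion rule. The arterial wall rule was met by 64 and 0 of them, and 15 and 0 held Ebf2 with Adamts18. The mesothelial rule by itself was met by 956 and 2368 non-erythroid cells.

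The 26 cells had a median of 16229.5 UMIs and lower levels of all 7 rule genes than the 806 cells labelled wildtype. By their summed hemoglobin, free RNA made up at most 21.9% of the UMIs of the 26 cells, against 6.82% in the 806. Hemoglobin of the median cell went the other way, at 0.119% of UMIs in the 26 and 0.271% in the 806. The bound for the 26 thus leans on those with more hemoglobin and does not describe the median cell. The part of free RNA in the levels of the rule genes was not tested. Tnxb stood at 32.6 CPM [18.3, 53.8] from 15 UMIs, Col14a1 at 30.5 CPM, Pid1 at 128, Pde1a at 359, Spon2 at 93.6, Slit2 at 579 and Kcnn3 at 15.2 CPM from 7 UMIs. Of the 26, 20 held exactly 4 rule genes, 14 met the cushion rule and 21 held Tcf21 and Pdgfra.

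A definition that does not use the rule genes was added to set the libraries side by side. Cells passing the exclusions with a UMI of both Tcf21 and Pdgfra numbered 796 labelled wildtype, 15.2% [14.2, 16.2] of non-erythroid cells, and 204 labelled knockout, 4.25% [3.70, 4.86]. Their median depths were 9931.5 and 14390.5 UMIs. The exclusions were read at each cell's own depth, where 2290 cells labelled wildtype and 990 labelled knockout passed them. Read after thinning, 2668 and 2312 passed, so the number passing moved with depth, and more so in the library labelled knockout. The part of depth in the shares of 15.2% and 4.25% was not tested. Of the cells with Tcf21 and Pdgfra labelled wildtype 72.1% met the rule, and of those labelled knockout 10.3% [6.49, 15.3]. Bub1b itself stood at 58.5 CPM in the first and 46.2 CPM in the second, a log2 ratio of -0.34. The labels do not say which exons the floxed allele loses, so a 3' count of Bub1b checks neither label.

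In these cells, all 7 rule genes were lower in the library labelled knockout. The rule was set for the library labelled wildtype, where 72.1% of these cells met it, which bears on this direction. Tnxb stood at 4.92 against 114 CPM (-4.53 [-5.37, -3.80]), Col14a1 at 10.2 against 206 (-4.34), Kcnn3 at 4.59 against 74.8 (-4.03), Pid1 at 41.6 against 389 (-3.23), Spon2 at 29.8 against 254 (-3.09), Slit2 at 247 against 1549 (-2.65) and Pde1a at 241 against 651 (-1.43 [-1.55, -1.32]). Tcf21 and Pdgfra, which defined the cells, stood at -0.66 and -0.35. Of 13190 genes, 135 (1.02%) were at least 2-fold higher in the library labelled knockout and 267 (2.02%) lower. There is 1 pool per genotype, so none of this is tested against the spread between pools.

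Many collagen genes were lower in the same cells of the library labelled knockout. Of 25 fibrillar collagen genes, 13 were at least 2-fold lower and 1 higher, with a median of -1.07. Col1a1 stood at 193 against 1416 CPM (-2.87 [-2.99, -2.75]), Col3a1 at 393 against 2066 (-2.39), Dcn at 109 against 810 (-2.89), Ogn at 4.59 against 119 (-4.69) and Aspn at 2.62 against 46.2 (-4.14). Of 9 proteoglycan genes, 5 were at least 2-fold lower and 1, Vcan (1159 against 403 CPM), higher. Of the genes that ranked high in Tnxb/Col14a1 cells, Lsp1 (-1.68), Gucy1a1 (-2.11), Hpse2 (-2.75), Slc38a5 (-3.23) and Ano5 (-2.88) were lower. They were picked in the library labelled wildtype, where 72.1% of the cells compared met the rule, against 10.3% labelled knockout. That choice bears on their direction, so they add no separate support. The fibroblast list, which holds Col1a1, Col1a2 and Col3a1 among genes of other kinds, was not low in these cells alone. Its 18 genes summed to a median of 6 thinned UMIs per mesothelial-rule cell labelled knockout against 16 labelled wildtype. In cushion-rule cells they summed to 5 against 19.

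Of 13 cushion genes, 6 were at least 2-fold higher there and none lower, with a median of 0.89, while 7 had intervals above 0 and 2 below. Hapln1 stood at 1102 against 60.8 CPM (4.18 [4.05, 4.32]), Twist1 at 378 against 110 (1.78) and Sox9 at 457 against 241 (0.92). The cushion genes also summed to more in some other classes labelled knockout, with a median of 5 thinned UMIs per mesothelial-rule cell against 3 labelled wildtype, 14 against 10 in cushion-rule cells and 6 against 4 in endothelial-rule cells, but 1 against 3 in the cells of no class. Hmga2, a growth gene of early embryos, stood at 965 against 411 CPM (1.23 [1.16, 1.30]), and it was also higher in mesothelial-rule cells (708 against 172 CPM) and cushion-rule cells (917 against 229 CPM). Of 9 growth genes, 2 were at least 2-fold higher. G2/M genes had a median of -0.03 and S phase genes of 0.44, with none of either list past 2-fold. Wt1 stood at 90.5 against 114 CPM and Tbx18 at 191 against 152. Heart muscle genes summed to 853 against 399 CPM and macrophage genes to 54.4 against 94.8, and their part was not tested. Whether Tcf21 and Pdgfra mark the same kind of cell in both libraries was not tested.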

How the data were processed

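Single-cell RNA libraries (10x Chromium 3' v3.1) were made from hearts of mouse embryos kept 3 h on ice, digested with TrypLE in steps of 5 min and strained at 70 µm. The deposited files hold raw UMI counts per gene and barcode for every barcode; the authors made them with Cell Ranger 7.1.0 and mm10, according to the submitters' processing notes. No cell filter of the authors was used.

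Cells needed at least 3000 UMIs, 500 genes, at most 20% mitochondrial and under 20% hemoglobin UMIs: 7440 and 5966 barcodes passed in the libraries labelled wildtype and knockout, 2201 and 1166 of them erythroid. Other cells were classed in turn by the Ttn, endothelial and mesothelial rules, the rule of the report, then by at least 3 macrophage genes, the cushion rule, the arterial wall rule and Ebf2 with Adamts18; 620 cells labelled wildtype were left. No doublets were removed; removal of the highest Scrublet scores (scanpy 1.11.5, 220 and 184 cells) was an alternative. UMIs were summed per class and scaled to CPM. Levels have exact Poisson, shares Clopper-Pearson and ratios conditional binomial intervals at 95%, for counting error only. No test was possible with 1 library per genotype. List values used genes with at least 20 UMIs and 10 CPM added; the plan had put this filter as the alternative, and values without it are given as one. Genes were placed with GENCODE vM21, and 127 of 32285 had no match. The calculations were tested on simulated data.

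The cells, the 34 gene lists and the comparisons were chosen with earlier results of these data known. Named genes were, outside the rule's own genes and without mitochondrial, ribosomal, hemoglobin, sex-linked RNA and unnamed models, the 20 highest and 10 lowest against other non-erythroid cells (at least 50 CPM), the 12 highest and 8 lowest against cells of at most 1 rule gene, the 12 of highest variance to mean, and examples of the lists; the comparisons with mesothelial-rule, cushion-rule and Tcf21 and Pdgfra cells were added after the data were seen. Some results of the gene lists are not reported here.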

Additional observations from a re-analysis of the deposited data

How the results depend on the processing

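The share of Tnxb/Col14a1 cells in non-erythroid cells was 15.4% as reported, 20.8% with at least 3 rule genes, 11.5% with at least 5, 10.1% (527 cells) with detection and exclusions read after thinning to 3000 UMIs, 16.6% with at least 5000 UMIs and 16.6% with a mitochondrial limit of 10%. In the library labelled knockout it was 0.542%, and 1.98%, 0.125% and 0.0208% under the first 3 of these. With 1 CPM added in place of 10, 481 genes in place of 203 were at least 2-fold higher and 1833 in place of 622 lower, because fewer CPM pull low genes less. The median of the Hox list turned from -0.14 to 0.035 with at least 3 rule genes; the cause was not tested. Over all alternatives, 389 of 408 list medians stayed within their interval; 14 changed sign where the interval held 0, besides the Hox list. Of 291 ratios of named genes, 184 stayed within their counting interval and none changed sign; another 9, all of heart muscle genes, gave no value because free RNA subtraction left 0 in Tnxb/Col14a1 cells. Leaving out cells with 3 macrophage genes was chosen after seeing the data, as were the Tcf21 and Pdgfra comparison and the splits. No paired analysis was possible because each genotype has 1 library. Depth limits what a rule of detected genes can find, and 1 pool per genotype limits every statement between libraries.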
